A study of Mus musculus with 4 samples.

Results

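Maf, the 3 small Maf genes and 3 genes of the CNC family were followed through 4 RNA-seq libraries of effector regulatory T cells from mouse Peyer's patches, the lymphoid follicles of the small intestine. The 7 genes were taken by symbol from the deposited table of raw counts, which holds 24061 gene rows. They are Maf, Maff, Mafg, Mafk, Bach1, Nfe2l1 and Nfe2l2. All 7 were found, and all 7 passed the filter on low counts with 13022 genes in total.

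The cells had been sorted as CD4+, FoxP3+ and CD62L- from mice aged 13 weeks. Every mouse carried FoxP3-YFP-cre, a Cre recombinase with a yellow fluorescent protein at the Foxp3 locus, and the labels give a C57BL/6 background at backcross generation 5. In 2 libraries the labelled genotype is Maf flox/flox (labelled flox 1 and flox 2), and in the other 2 it is Maf+/+ (labelled wt 1 and wt 2). About 40000 cells went into each sample, and the stated question was the dependence of their transcripts on c-Maf. The labels do not say whether the libraries of a group came from separate animals, nor which part of Maf the flox sites flank, and the p-values below measure only the spread between these libraries, part of which may be technical. In such bulk samples, fewer cells that express a gene and less RNA per cell cannot be told apart.

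All members encode basic leucine zipper transcription factors, which bind DNA as dimers. c-Maf, the product of Maf, is a large Maf protein with a transactivation domain and controls cytokine genes of helper and regulatory T cells, among them Il10. The small Maf proteins MAFF, MAFG and MAFK lack such a domain. They form heterodimers with CNC proteins such as NRF1 (Nfe2l1), NRF2 (Nfe2l2) and BACH1, and the partner decides whether a gene with an antioxidant response element is activated or repressed.

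Maf itself went against the genotype labels. Counts of Maf were 15 in the library labelled flox 2 (exact Poisson 95% interval 8.40 to 24.7) and 40 in the library labelled wt 2 (28.6 to 54.5), against 2975 in the library labelled flox 1 (2869 to 3084) and 3071 in the library labelled wt 1 (2963 to 3182). Scaled to TMM library sizes as CPM, a count relative to the depth of its library, these were 0.725 and 1.98 in flox 2 and wt 2, against 122 and 149 in flox 1 and wt 1. The libraries low in Maf were therefore the 2 that carry the number 2 in their titles, whichever genotype they are labelled with. The number 2 libraries stayed above the level that 3 counts would give, 0.145 CPM in flox 2 and 0.148 CPM in wt 2. Such intervals, and the binomial intervals of ratios below, cover counting error only and leave out the spread between libraries. Maf lies on chromosome 8 at 115682942 to 115707794 on the minus strand (mm10). It shares 440 exon bases with Gm15655, a gene annotated as antisense that has no row in the deposited counts under that name. Reads of both would be hard to tell apart without strand.

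The authors' deposited normalized values follow the numbers as well. Pseudo-counts, edgeR's counts put on equal library sizes for a given grouping, matched all 42472 deposited values within a relative error of 1e-06 when the libraries were grouped by number. Grouped by labelled genotype, 3.25% matched. Libraries are called here by their labels, none was moved to another genotype, and 2 comparisons are given, one by title number and one by labelled genotype. Since the number was noticed to coincide with the Maf level, the values of Maf by number are a description with no test. A direction by number is a direction between libraries with little and much Maf mRNA. Whether the number, rather than the label, follows the genotype, as it would if the titles of 2 libraries had been exchanged, was not tested and cannot be settled from the labels.

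Total gene counts ran from 19368745 to 24687897 per library. By number, 236 of 13022 genes passed edgeR's quasi-likelihood test at an adjusted p under 0.05, which is 1.81% of those tested; 52 (0.399%) were higher and 184 (1.41%) lower in the libraries numbered 2. The count was 38 without the library labelled wt 1, 69 without flox 1, 439 without flox 2 and 494 without wt 2. By labelled genotype 1 gene passed (0.00768%). The genes lower by number include Maf, whose own result is not read as a test because the grouping was noticed through it. Of the markers of the sorted cells, Foxp3 had 104 CPM in both libraries numbered 2, against 91.0 and 93.8 CPM in flox 1 and wt 1, and Cd4 ran from 920 to 998 CPM over the 4 libraries. Of the 7 markers of regulatory T cells, 1 passed by number, Ctla4, which was lower in the libraries numbered 2 (log2 fold change -0.85, adjusted p = 0.0270 by edgeR). Il2ra had a log2 fold change of 0.24 (unadjusted p = 0.0310, adjusted p = 0.303 by edgeR). Markers of other cells were also detected, and the epithelial gene Epcam, picked with its values in view, had 89.2 and 140 CPM in flox 2 and wt 2, against 91.9 and 75.8 CPM in flox 1 and wt 1. The 10 B cell markers in the table, of 11 listed, summed to 85.9 and 107 CPM in flox 2 and wt 2, against 159 and 84.3 CPM in flox 1 and wt 1, and the 13 epithelial markers to 366 and 509 CPM, against 498 and 209 CPM. The 11 myeloid markers, of 12 listed, summed to 58.2 and 63.2 CPM in flox 2 and wt 2, against 99.8 and 13.3 CPM in flox 1 and wt 1. Of these, Csf1r and Cd14 were at 0 in wt 1, and Fcgr1 was at 0 in every library. None of the B cell, epithelial and myeloid markers passed the test in either comparison, and their part in the results below was not tested.

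**Figure D1:**
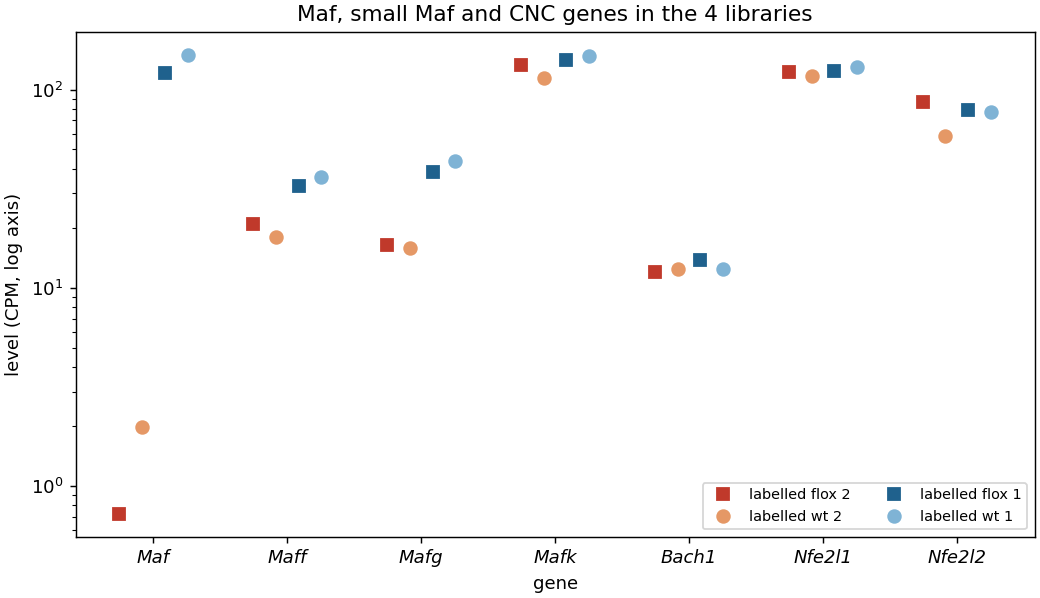
Level of each gene in CPM (log axis) in the 4 libraries, named by their labels; squares are labelled flox, circles labelled wt, red shades carry number 2 and blue shades number 1. Maf, Maff and Mafg lie lower in both red points than in both blue ones, while Bach1 and Nfe2l2 overlap.

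Among the members other than Maf, the libraries numbered 2 had lower Mafg, and Maff lay lower there without passing the test, and Mafk and the 3 CNC genes did not pass either. Mafg fell to 39.4% of its level in the libraries numbered 1, and the mean of Maff was 56.9%. Of these 6 genes, 1 passed the test by number, beside 1.81% of all genes tested, and it was lower; 2 had an unadjusted p under 0.05, beside 13.6% of all genes. Their median log2 fold change by number was -0.16, against 0.01 over all genes tested. Both libraries numbered 2 lay below both numbered 1 for 4 of these 6 genes, Maff, Mafg, Mafk and Nfe2l1. Over all genes tested this held for 22.5%, the opposite order for 22.7%, and either for 45.2%.

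Mafg encodes the small Maf protein MAFG, a partner of NRF2 and BACH1, and lies on chromosome 11 at 120625117 to 120633600 on the minus strand (mm10). Its counts were 339 and 323 for the libraries labelled flox 2 and wt 2, against 936 and 901 counts in flox 1 and wt 1. In CPM these were 16.4 and 16.0 in flox 2 and wt 2, against 38.3 and 43.8 in flox 1 and wt 1. The groups by number did not overlap, and the 2 low libraries, one of each labelled genotype, differed by less than 1 CPM. The mean was 16.2 ± 0.301 CPM in the libraries numbered 2 and 41.1 ± 3.86 CPM in those numbered 1 (SD, n = 2 each). The log2 fold change was -1.34 (SE 0.14, 95% interval -1.68 to -1.01), with an adjusted p of 0.0092 by edgeR's quasi-likelihood test, at rank 66 of 13022 by p. Without the library labelled wt 1 the log2 fold change was -1.24 and the adjusted p 0.103. Within each labelled genotype the ratio of number 2 over number 1 was 0.428 among libraries labelled flox (95% binomial interval 0.377 to 0.485) and 0.365 among those labelled wt (0.320 to 0.414).

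Mafg shares 124 exon bases with its neighbour Sirt7 on the same strand, so some reads there could have been set aside or counted for either gene. Sirt7 had 228 and 244 CPM in flox 2 and wt 2, against 218 and 231 CPM in flox 1 and wt 1, with overlapping groups and a log2 fold change of 0.07 (95% interval -0.13 to 0.27, adjusted p = 0.792 by edgeR).

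Maff, whose product MAFF is induced by stress and inflammatory signals in several cell types, lies on chromosome 15 at 79346621 to 79359076 on the plus strand. It had 20.9 and 18.0 CPM in the libraries labelled flox 2 and wt 2, against 32.5 and 36.1 CPM in flox 1 and wt 1. Both libraries numbered 2 were again below both numbered 1. The mean was 19.5 ± 2.05 CPM in the libraries numbered 2 and 34.3 ± 2.54 CPM in those numbered 1 (SD, n = 2 each). The log2 fold change by number was -0.81 (SE 0.15, 95% interval -1.17 to -0.46) and missed the threshold by edgeR's quasi-likelihood test (adjusted p = 0.0612). It passed with DESeq2 (adjusted p = 0.0028). By edgeR it passed without the low-count filter (adjusted p = 0.0040) and with 10 counts in every library (adjusted p = 0.0476). It missed with limma-voom (adjusted p = 0.0728). By edgeR it missed with RLE size factors (adjusted p = 0.0600), no scaling factor (0.0622) and the labelled genotype as a block (0.0922). Over all alternatives the log2 fold change of Maff ran from -0.93 to -0.71. Both ends came from dropping a library, flox 2 for -0.93 and wt 2 for -0.71. Dropping wt 1 gave -0.74, and dropping flox 1 gave -0.89. Such fits keep a lone library in a group, so the adjusted p-values listed above do not include them. Those values therefore do not show how far the call of Maff depends on any single library. The ratio of number 2 over number 1 was 0.645 among libraries labelled flox (0.572 to 0.726) and 0.500 among those labelled wt (0.440 to 0.568).

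Mafk, the third small Maf gene, encodes a partner of NRF2, BACH1 and the erythroid factor NF-E2 and lies on chromosome 5 at 139791513 to 139802653 on the plus strand. It had 133 and 115 CPM in flox 2 and wt 2, against 140 and 147 CPM in flox 1 and wt 1. The groups did not overlap, but the gap was small beside their spread. The log2 fold change was -0.21 (SE 0.10, 95% interval -0.45 to 0.02, adjusted p = 0.426 by edgeR), so that a fall larger than that bound of -0.45 lies outside the interval. This interval and that of Mafg do not overlap, although the difference between the genes was not itself tested. Mafk shares 169 exon bases with Tmem184a on the opposite strand, which had at most 1.84 CPM in any library. The use of strand in the counting is not stated in the sources at hand.

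The 250 bases before the RefSeq starts of these 3 genes are shown because the small Maf genes hold the member that passed by number. A further reason is that they are themselves described as targets of CNC and small Maf dimers. Sequences are RefSeq's for GRCm38.p6, the assembly of mm10, written 5′ to 3′ along the gene. Some RefSeq starts differ from the gene places given above, which are from GENCODE. The windows of Mafg and Mafk run into the gene as placed there, and that of the second Maff start lies wholly inside it. Capitals mark matches to TGACNNNGC, the core shared by antioxidant response elements, or to TGACGTCA, the cyclic AMP response element, on either strand.
Mafg, chr11:120633548-120633797, strand -: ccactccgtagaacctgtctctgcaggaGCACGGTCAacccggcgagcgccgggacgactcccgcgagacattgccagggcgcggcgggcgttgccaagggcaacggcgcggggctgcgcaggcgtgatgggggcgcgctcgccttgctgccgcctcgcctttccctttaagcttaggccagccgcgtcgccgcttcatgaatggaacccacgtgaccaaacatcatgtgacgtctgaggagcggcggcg
Maff first start, chr15:79346371-79346620, strand +: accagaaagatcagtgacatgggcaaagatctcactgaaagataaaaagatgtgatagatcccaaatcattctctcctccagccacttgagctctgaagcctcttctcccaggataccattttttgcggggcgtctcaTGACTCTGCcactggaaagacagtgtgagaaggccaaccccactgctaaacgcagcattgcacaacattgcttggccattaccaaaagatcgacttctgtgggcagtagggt
Maff second start, chr15:79347270-79347519, strand +: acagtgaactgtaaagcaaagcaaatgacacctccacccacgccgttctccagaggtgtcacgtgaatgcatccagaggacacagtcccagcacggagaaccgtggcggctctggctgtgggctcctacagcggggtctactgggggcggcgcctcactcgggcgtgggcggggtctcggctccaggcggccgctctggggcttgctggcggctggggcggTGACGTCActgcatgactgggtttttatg
Mafk, chr5:139791286-139791535, strand +: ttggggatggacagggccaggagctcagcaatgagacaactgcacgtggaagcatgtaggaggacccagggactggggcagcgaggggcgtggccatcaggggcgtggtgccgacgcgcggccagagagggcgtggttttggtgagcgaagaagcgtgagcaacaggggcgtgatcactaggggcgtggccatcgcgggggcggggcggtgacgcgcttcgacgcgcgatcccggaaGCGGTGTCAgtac

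The Mafg window held TGACNNNGC once, on the strand opposite to the gene, at positions -222 to -214 counted from the start. The first Maff start held it at -112 to -104 on the gene's strand, and Mafk at -13 to -5 on the opposite strand. This Mafk match lies before the RefSeq start but inside the gene as placed by GENCODE. The third Maff start, not shown, held neither motif. The second Maff start held TGACGTCA, which reads the same on both strands, at -29 to -22. Of 32851 windows of the same length from all genes, 10.2% held TGACNNNGC and 1.55% held TGACGTCA. Windows were given for 6 of the 7 members, all but Maf. The Nfe2l2 window held TGACNNNGC at -240 to -232, and those of Bach1 and Nfe2l1 held neither motif. No 2 matches overlapped apart from the palindrome read on both strands, and they are a description of letters, not of binding.

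**Figure D2:**
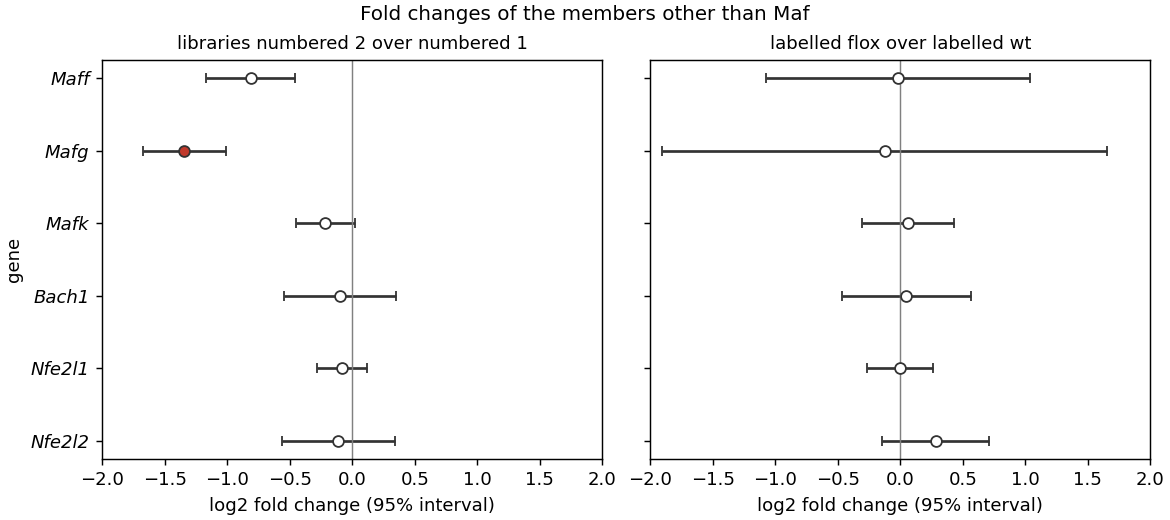
Log2 fold change with its 95% interval (edgeR quasi-likelihood fit) for the 6 members other than Maf, by title number on the left and by labelled genotype on the right; a filled point passed the adjusted threshold of 0.05. Mafg is the filled point at -1.34 by number, and no gene passed by label.

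The small Maf proteins can stand in for each other as partners of CNC proteins, so their summed level was set beside that of the CNC members, per kilobase of annotated exon so that genes of different length could be added. Summed over Maff, Mafg and Mafk, the level was 45.0 and 39.3 CPM per kb in flox 2 and wt 2, against 55.3 and 59.5 CPM per kb in flox 1 and wt 1. Mafk made up 75.6% and 75.1% of the sum in flox 2 and wt 2, against 65.0% and 63.5% in flox 1 and wt 1. The share of Mafg was 6.49% and 7.24% in the libraries numbered 2, against 12.3% and 13.1% in those numbered 1. The sum of Bach1, Nfe2l1 and Nfe2l2 was 47.3 and 39.0 CPM per kb in flox 2 and wt 2, against 45.9 and 46.3 CPM per kb in flox 1 and wt 1. The ratio of small Maf to CNC level was thus 0.952 and 1.01 in flox 2 and wt 2, against 1.21 and 1.28 in flox 1 and wt 1. These sums are descriptions with no test, and mRNA sums say nothing of protein amounts. The length counted every annotated exon of a gene, whichever transcripts were expressed, so sums, ratios and orders between genes depend on it.

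**Figure D3:**
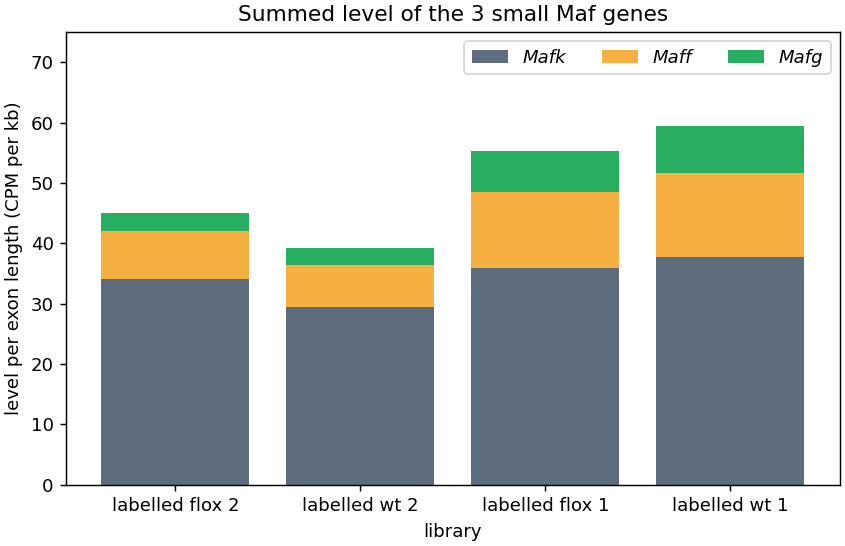
Stacked level of Mafk, Maff and Mafg per kilobase of exon (CPM per kb) in each library, with the libraries numbered 2 on the left. The bars reach 45.0 and 39.3 in flox 2 and wt 2, against 55.3 and 59.5 in flox 1 and wt 1, and the Mafg part is smallest in the 2 left bars.

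Per kilobase of annotated exon, with the same limit, Mafk was the highest of the 7 genes in every library. In the libraries numbered 1 the order was Mafk at 36.0 and 37.7 CPM per kb in flox 1 and wt 1, then Nfe2l1 at 22.9 and 23.9, Nfe2l2 at 20.8 and 20.4, Maf at 14.8 and 18.1, Maff at 12.5 and 13.9, Mafg at 6.83 and 7.80, and Bach1 at 2.23 and 2.02. These ranges did not overlap between neighbours in the order. In flox 2 and wt 2 Maf was the lowest of the 7, at 0.0880 and 0.240 CPM per kb, under Bach1 at 1.95 and 2.02. Nfe2l1 and Nfe2l2 could not be ordered in flox 2, with 22.6 and 22.8 CPM per kb.

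None of the CNC genes passed the test by number. Bach1, a repressor whose DNA binding is released by heme, lies on chromosome 16 at 87698945 to 87733346 and had 12.0 and 12.5 CPM in flox 2 and wt 2, against 13.8 and 12.5 CPM in flox 1 and wt 1. Its log2 fold change by number was -0.10 (95% interval -0.55 to 0.35, adjusted p = 0.883 by edgeR). Nfe2l1 encodes NRF1, which controls proteasome subunit genes, and lies on chromosome 11 at 96817414 to 96829968. It had 123 and 118 CPM in flox 2 and wt 2, against 124 and 130 CPM in flox 1 and wt 1, a log2 fold change of -0.08 (95% interval -0.28 to 0.12, adjusted p = 0.763 by edgeR).

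Nfe2l2 encodes NRF2, the main activator of antioxidant genes, and lies on chromosome 2 at 75675513 to 75704641. It had 86.4 and 58.3 CPM in flox 2 and wt 2, against 78.9 and 77.5 CPM in flox 1 and wt 1, so that the 2 libraries numbered 2 held both its highest and its lowest value. The log2 fold change by number was -0.11 (95% interval -0.57 to 0.34, adjusted p = 0.865 by edgeR), and it was 0.14 without the library labelled wt 2. The library labelled flox 2, where Nfe2l2 was highest, also stood apart in heat shock genes. The 12 heat shock genes summed to 13418 and 5046 CPM in flox 2 and wt 2, against 5827 and 5136 CPM in flox 1 and wt 1, and Hspa1b had 1594 and 199 CPM, against 151 and 71.2 CPM. Hspa8, the most abundant of them, had 4359 and 1878 CPM, against 2375 and 2104 CPM, and Hspa1a had 892 and 103 CPM, against 80.9 and 35.5 CPM. Hspe1 had 105 and 42.4 CPM, against 40.9 and 30.4 CPM, while Hspb1 had 5.08 and 1.68 CPM, against 9.63 and 6.03 CPM. Whether this bears on Nfe2l2 was not tested. None of the 12 heat shock genes passed the test in either comparison.

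By labelled genotype, none of the members passed edgeR's quasi-likelihood test, and none had an unadjusted p under 0.05, beside 1.98% of all genes tested. Nfe2l2 was the one member whose labelled groups did not overlap, as held for 27% of all genes. It averaged 82.7 ± 5.32 CPM in the libraries labelled flox and 67.9 ± 13.5 CPM in those labelled wt (SD, n = 2 each), a log2 fold change of 0.28 (SE 0.17, 95% interval -0.14 to 0.71, unadjusted p = 0.150 by edgeR). For Mafg the mean was 27.4 ± 15.5 CPM in labelled flox and 29.9 ± 19.7 CPM in labelled wt, and for Maff 26.7 ± 8.16 and 27.1 ± 12.7 CPM. Their labelled groups overlapped because each held a high and a low library. For Maf the log2 fold change by label was -0.30 (SE 2.63, adjusted p = 1.00 by edgeR), and the sign turned without flox 2 (0.69) or without wt 1 (4.95). Mafk, Bach1 and Nfe2l1 had log2 fold changes of 0.06, 0.05 and -0.0027 by label.

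Other genes of the Maf and CNC families were mostly low. Bach2 was the highest of them and encodes a repressor that holds back effector differentiation in T cells. It had 35.1 and 37.5 CPM in flox 2 and wt 2, against 46.8 and 49.7 CPM in flox 1 and wt 1. The groups by number did not overlap, but the log2 fold change of -0.41 (SE 0.11) did not pass (adjusted p = 0.179 by edgeR). Mafa stayed at or under 0.614 CPM, and Nrl, Nfe2 and Nfe2l3 did not pass the filter, with at most 1, 6 and 9 counts in a library.

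Among the regulators of NRF2, 11 of the 12 listed genes were tested and none passed in either comparison. The other, Wtx, had no row in the counts under that symbol. Their median log2 fold change by number was -0.01, and 3 had an unadjusted p under 0.05, beside 13.6% of all genes. Fbxw11, a subunit of a ubiquitin ligase that turns NRF2 over, had 190 and 180 CPM in flox 2 and wt 2, against 244 and 261 CPM in flox 1 and wt 1 (log2 fold change -0.45, SE 0.09, adjusted p = 0.0683 by edgeR). The autophagy receptor Sqstm1, which binds KEAP1, had 550 and 596 CPM in flox 2 and wt 2, against 692 and 656 CPM in flox 1 and wt 1 (adjusted p = 0.275 by edgeR). The kinase gene Gsk3b had a log2 fold change of -0.22 and Palb2 one of 0.53, with an adjusted p of 0.343 and 0.513 by edgeR. Keap1, the sensor that holds NRF2 down and was named after its values were seen, ran from 76.8 to 87.2 CPM.

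The list of antioxidant and iron genes tied to NRF2, to BACH1 or to both showed no called gene. Of 26 listed genes 25 were tested, none passed in either comparison, 12 had a negative and 13 a positive log2 fold change by number, and the median was 0.01. By label 21 of the 25 were positive, beside 6544 of all 13022 genes tested, with a median of 0.08 against 0.00. Each labelled group mixed libraries with much and little Maf mRNA, and this count was not tested. Hmox1, heme oxygenase, which BACH1 represses in many cells, had 9.91 and 9.34 CPM in flox 2 and wt 2, against 15.9 and 16.1 CPM in flox 1 and wt 1. Its groups were separate and its log2 fold change was -0.73 (SE 0.18), without passing (unadjusted p = 0.0062, adjusted p = 0.141 by edgeR). The ferritin light chain gene Ftl1 had 1074 and 1058 CPM in flox 2 and wt 2, against 1336 and 1251 CPM in flox 1 and wt 1 (adjusted p = 0.152 by edgeR). The ferritin heavy chain gene Fth1, the most abundant of the list, had 1426 and 1163 CPM, against 1443 and 1352 CPM, with overlapping groups. Taldo1, an enzyme of the pentose phosphate pathway, had a log2 fold change of 0.20 and the peroxiredoxin Prdx1 one of -0.14, with an adjusted p of 0.329 and 0.551 by edgeR.

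The proteasome, whose subunit genes NRF1 drives when proteolysis is short, showed no called gene either. All 34 listed genes were tested, none passed in either comparison, and their log2 fold changes by number ran from -0.23 for Psmc3 to 0.17 for Psmb1, with a median of 0.01. Their summed level was 4230 and 4124 CPM in flox 2 and wt 2, against 4155 and 4217 CPM in flox 1 and wt 1. Psmd2, the most abundant, had 394 and 404 CPM in flox 2 and wt 2, against 390 and 429 CPM in flox 1 and wt 1. Psmc5 and Psma6 had log2 fold changes of -0.15 and 0.13 by number. Of the genes listed as tied to NRF1, by its processing or otherwise, 8 of the 9 were tested and none passed. The other, Hrd1, had no row in the counts under that symbol. Ngly1, the glycanase that NRF1 needs for its activation, had 94.7 and 104 CPM in flox 2 and wt 2, against 137 and 145 CPM in flox 1 and wt 1 (log2 fold change -0.50, SE 0.09, adjusted p = 0.0617 by edgeR). The extraction ATPase gene Vcp had a log2 fold change of -0.16, Nfya one of -0.23 and Hcfc1 one of -0.10, with adjusted p of 0.399, 0.754 and 0.755 by edgeR.

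**Figure D4:**
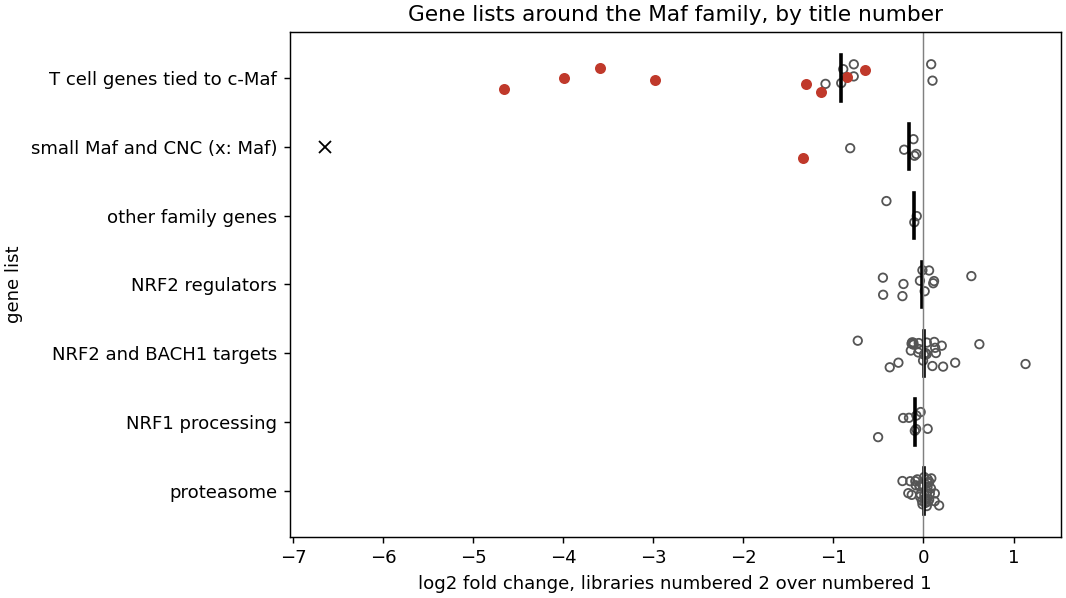
Log2 fold change of the libraries numbered 2 over those numbered 1 for the tested genes of 7 lists. Filled points passed the adjusted threshold of 0.05, and the black bar is the list's median. The cross is Maf, whose fold change is shown as a description with no test. The NRF2 target and proteasome lists centre on 0.01, while the list of T cell genes tied to c-Maf has its median at -0.91.

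Genes tied to c-Maf in T cells, taken as a comparison list, included several called genes. Of 15 listed, all tested, 8 were lower in the libraries numbered 2 and 0 higher, beside 1.41% and 0.399% of all genes, and the median log2 fold change was -0.91. This list was chosen with earlier results of these libraries known and is no independent evidence of its direction. Il10 had 26.8 and 24.5 CPM in flox 2 and wt 2, against 385 and 429 CPM in flox 1 and wt 1. Further log2 fold changes of genes that passed were -4.65 for Il21, -3.59 for Il23r, -1.30 for Cxcr5, -1.14 for Lag3, -0.85 for Ctla4 and -0.65 for Tigit. That of Mafg, -1.34, lay within this wide range, and whether Mafg depends on c-Maf was not tested.

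The profiles nearest to Maf and to Mafg were sought over the 4 libraries by the root mean square distance between centred log2 CPM, among the 9067 genes that averaged 3 or more in log2 CPM. Nearest to Maf were Gbp2b at a distance of 0.74, Matn2 at 1.02, Rnase4 at 1.20, Mmp9 at 1.27 and Il10 at 1.45, where the swing of Maf itself about its mean was 3.38. Gbp2b had 2.47 and 2.27 CPM in flox 2 and wt 2, against 116 and 130 CPM in flox 1 and wt 1. Nearest to Mafg, whose swing was 0.67, were 1190002N15Rik at 0.06, Igf1r, Ugcg and Snx2 at 0.08, 0.08 and 0.10, and Npnt at 0.10. Igf1r, the receptor for insulin-like growth factor, had 31.6 and 28.8 CPM in flox 2 and wt 2, against 66.2 and 73.0 CPM in flox 1 and wt 1, and Ugcg, which makes glucosylceramide, had 114 and 108 CPM, against 230 and 287 CPM. With 4 libraries that fall into 2 pairs, these distances describe size and direction between the pairs and little else.

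**Figure D5:**
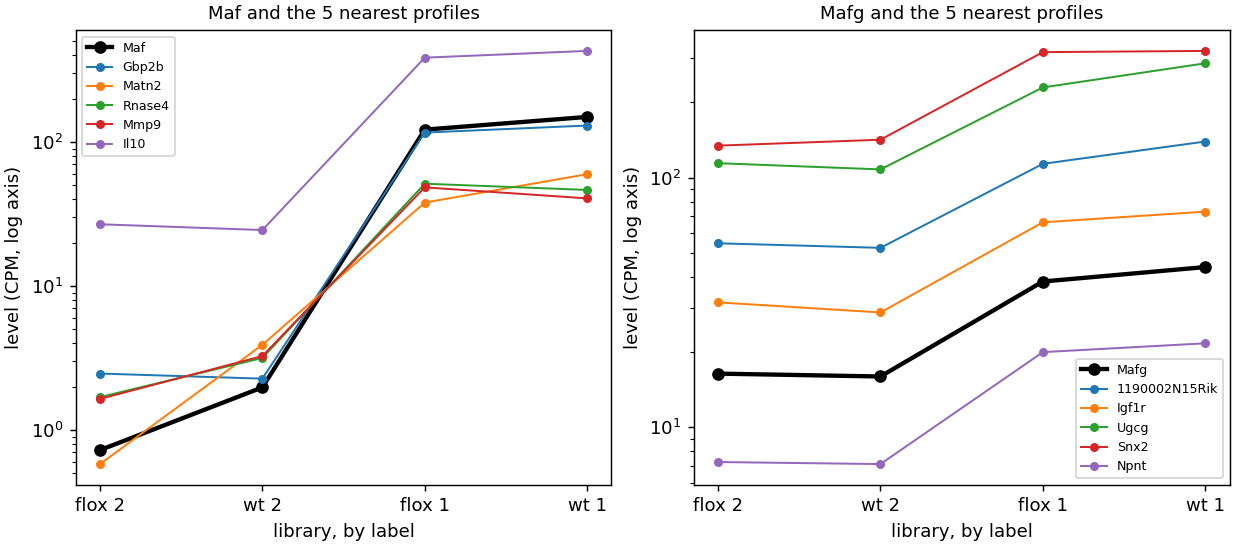
Level in CPM (log axis) of Maf and Mafg (black) and of the 5 genes nearest to each, in the libraries labelled flox 2, wt 2, flox 1 and wt 1 from left to right. Mafg lies at 16.4 and 16.0 in the 2 left libraries, against 38.3 and 43.8 in the 2 right ones. Its neighbours were picked for a like profile over these same libraries. Their log2 fold changes by number run from -1.54 for Npnt to -1.20 for Igf1r.

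In the authors' deposited table of normalized values, Mafg had 350 and 343 in the libraries labelled flox 2 and wt 2, against 825 and 932 in flox 1 and wt 1. Maff had 447 and 387 in the authors' deposited table for flox 2 and wt 2, against 699 and 768 for flox 1 and wt 1. All 7 members are among its 10618 rows.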

How the data were processed

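RNA of sorted cells was sequenced; the labels' protocols name Trizol, a spin column clean-up and a library kit for very small amounts of mRNA. TopHat2 2.1.1, HTSeq 0.6.1, edgeR 3.14 and build mm10 are named, per the submitters' processing notes. Settings, annotation and the handling of strand were not given in the sources used here. Deposited by the authors were raw counts per gene symbol and a filtered table of normalized values, a signal that is not whole and was only described. The 5 summary rows, 66.6% to 67.2% of each column, were left out.

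Groups and numbers come from the sample titles; a separate replicate field of the labels, which gives both libraries of a genotype the same number, was not used. The counts went into edgeR 4.0.16 in R 4.3.3 (filterByExpr, TMM, glmQLFit robust, glmQLFTest, Benjamini-Hochberg over 13022 genes). SE is the log2 fold change over the root of F. With 2 libraries against 2 an exact permutation test cannot go below 0.333, so none was run. DESeq2 1.42.0, limma-voom 3.58.1, other scalings and filters, a block and leaving out each library were alternatives; the test was checked on simulated counts. Exon lengths, overlaps and positions are from GENCODE M21 (GRCm38). The rule for named genes took the members, called list genes, up to 4 of each list by smallest p by number, the most abundant of each list and the 5 nearest profiles. A few genes under this rule are not reported here. The members and lists were chosen with earlier results of these data known.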

Additional observations from a re-analysis of the deposited data

Results flagged for a closer look

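Within the labelled genotypes, Nfe2l2 moved in opposite directions with the title number. Its log2 ratio of number 2 over number 1 was 0.13 among the libraries labelled flox and -0.41 among those labelled wt, with exact binomial 95% intervals of the ratio of 1.03 to 1.17 and 0.698 to 0.812. Bach1 also differed in sign, with a log2 ratio of -0.20 among the libraries labelled flox and 0.0016 among those labelled wt, and both of its ratio intervals held 1 (0.738 to 1.03 and 0.838 to 1.20). These intervals cover counting error only, so whether they hold 1 says nothing of the spread between libraries. With 1 library for each label and number, neither difference was tested.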

How the results depend on the processing

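By labelled genotype the count of 1 called gene became 2 without the low-count filter, 14 with DESeq2, 0 with 10 counts in every library (233 genes at an unadjusted p under 0.05), 0 with limma-voom (262 at an unadjusted p under 0.05), and 0 by edgeR when any library was left out (179 to 430 at an unadjusted p under 0.05). By number the count of 236 became 589 without the filter and 608 with DESeq2, and it ran from 38 to 494 when each library was left out, which leaves a lone library assumed to vary like the others. The fold change of a single member turned in sign by label for Nfe2l1 (0.0011 with RLE size factors, 0.0016 without the filter, 0.00092 with DESeq2) and Maff (0.027 with the replicate block, 0.048 with limma-voom). Leaving out each library, the log2 fold change by label ran from -6.69 to 4.95 for Maf, from -0.43 to 0.57 for Maff, from -0.87 to 0.78 for Mafg, from -0.11 to 0.25 for Mafk, from -0.054 to 0.15 for Bach1 and from -0.070 to 0.070 for Nfe2l1; the cause was not tested. By number Nfe2l2 ran from -0.43 to 0.14, and Mafg from -1.44 to -1.24 over all alternatives, with an adjusted p from 1.2e-09 to 0.103. With the replicate block by label 1 gene was called, and with the labelled genotype as a block by number 212 were, 188 of them shared with the 236. Same-numbered libraries deviated together from their label's mean (r = 0.264 across 13022 genes), but the labels do not say that the number marks a shared animal or day, and the block changed no call of a member.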
